A study of Homo sapiens with 12 samples.

Results

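Transcripts of 9 genes of the complement system were followed through a cycle of interferon exposure in AC16 cells. The genes were C1R, C1S, C3, CFB, CFI, SERPING1, CD46, CD55 and CD59, chosen by symbol as components or regulators of complement, and each matched 1 of the 60649 gene identifiers in the count table. The filter on low counts kept 8 of the 9 among 18119 genes tested, and CFI did not pass it. AC16 is an established human line made by fusing cells of ventricular heart tissue with a transformed fibroblast line. All cells were labelled wild type, all 12 libraries carried the same batch label, and each of the 4 groups had 3 libraries. Vehicle cells received phosphate-buffered saline and were labelled 24 h. Acute cells had interferon alpha-2a, a type I interferon, at 1000 U/mL for 24 h and were then collected. Recovery cells were pulsed in the same way, moved to interferon-free medium for 5 days and collected on day 6. In the repeat group a 24 h pulse was followed by 4 interferon-free days and by a second pulse of 24 h; the label gives day 7 for collection, although the intervals sum to 6 days. Recovery and repeat cells therefore also differ from vehicle and acute cells in labelled time in culture, and these differences cannot be told apart from those of the treatment.

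Complement is a cascade of plasma and cell-surface proteins that marks targets for clearance. In the classical pathway the proteases C1r and C1s, bound to the recognition protein C1q, cleave C4 and C2 to form an enzyme that splits C3, the central component. In the alternative pathway factor B, the product of CFB, joins deposited C3b and carries the protease that splits more C3. The inhibitor made from SERPING1 inactivates C1r and C1s, factor I (CFI) degrades C3b and C4b with the help of cofactors such as CD46, CD55 speeds the decay of the C3-splitting enzymes, and CD59 blocks assembly of the membrane attack complex on the cell itself. The liver makes most plasma complement, and many other tissues make part of it locally. C1R, C1S, CFB and SERPING1 are known interferon-responsive genes.

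Upstream sequence is shown for members that rose most, that bore a match to an interferon-type element, or that fell. The sequences are from RefSeq on GRCh38.p14, which held start sites for 6 of the 9 members (C1R, CFB, CFI, CD46, CD55 and CD59) and none for C1S, SERPING1 and C3. Each run begins 250 bases before the start site and reads 5′ to 3′ on the gene's strand. It stops before the first annotated exon base of the same gene, and exons of other genes were not considered. The CFB run lies inside the annotated CFB gene, which begins at chr6:31945650. Capitals mark a match to an ISRE-type pattern, GAAANNGAAA or its reverse complement TTTCNNTTTC, or to a GAS-type pattern, TTCNNNGAA, which is its own reverse complement. These are letters that interferon-activated transcription factors are known to bind.
CFB, chr6:31945845-31945974, plus strand: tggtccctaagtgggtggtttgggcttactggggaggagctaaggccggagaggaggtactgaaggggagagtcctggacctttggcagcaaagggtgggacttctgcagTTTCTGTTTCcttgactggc
C1R, chr12:7092541-7092695, minus strand: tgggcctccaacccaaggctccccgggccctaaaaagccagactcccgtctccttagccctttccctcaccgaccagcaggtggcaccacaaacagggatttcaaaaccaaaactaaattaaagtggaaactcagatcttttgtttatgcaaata
CD59, chr11:33736480-33736729, minus strand: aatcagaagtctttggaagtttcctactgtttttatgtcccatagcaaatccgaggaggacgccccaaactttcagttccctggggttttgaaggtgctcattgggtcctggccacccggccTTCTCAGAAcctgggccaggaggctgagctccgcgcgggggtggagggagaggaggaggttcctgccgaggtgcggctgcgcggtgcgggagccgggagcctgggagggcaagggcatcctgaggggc
CD46, chr1:207751788-207752036, plus strand: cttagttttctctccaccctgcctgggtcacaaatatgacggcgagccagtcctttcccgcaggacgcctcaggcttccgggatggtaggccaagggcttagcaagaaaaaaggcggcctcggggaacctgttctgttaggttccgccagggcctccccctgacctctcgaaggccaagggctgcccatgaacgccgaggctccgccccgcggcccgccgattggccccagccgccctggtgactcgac

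The CFB match lies 140 to 131 bases before the start site. ISRE-type matches were present in 3.02% of 35116 windows of 250 bases before RefSeq start sites. The CD59 match, of the GAS type, lies 128 to 120 bases before the start site, and GAS-type matches were present in 6.57% of the same windows. A further GAS-type match lies 92 bases before the CFB start and another 86 bases before a second C1R start site. Both lie past the first annotated exon base of the gene in their window, so they are not printed. Whether an exon covers the matches themselves was not checked. No match was found for CD46, CD55, CFI or the C1R start site shown, which says only that these letters are not in those windows.

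In GENCODE release 44 on GRCh38, C1R lies at chr12:7080214-7092540 on the minus strand and C1S at chr12:6988259-7071032 on the plus strand, so the pair stands tail to tail with 9181 bases between them. CD55 (chr1:207321519-207386804) and CD46 (chr1:207752037-207795513) lie on the plus strand of the same arm, 365232 bases apart. CFB is at chr6:31945650-31952086, C3 at chr19:6677704-6730562, CFI at chr4:109731008-109802150, SERPING1 at chr11:57597387-57619171 and CD59 at chr11:33703010-33736479. Several annotated genes overlap members: C1RL overlaps C1R on the same strand, LPCAT3 overlaps C1S on the other strand, GPR108 overlaps C3 on the same strand, and an unnamed protein-coding gene with 465 to 1017 counts per library overlaps CD59. The C2 gene overlaps CFB and had 33 to 81 counts, and the readthrough gene that spans both had 0 in 11 libraries. Whether the authors' counting used strand is not given in the sources used here, so the LPCAT3 and C1S reads may not be fully separated.

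Libraries held 39.9 to 62.3 M estimated counts (1 M is 1000000). Expression is given as CPM, counts per 1000000 with TMM scaling, for comparing groups, and as TPM, which also divides by gene length, for comparing genes. Errors of CPM and TPM are SDs over 3 libraries, and those of log2 fold changes are standard errors from edgeR. Genes with a two-sided adjusted p (Benjamini-Hochberg, across the 18119 genes) below 0.05 are named as called. All 5 interferon reference genes (IRF9, MX1, ISG15, IFIT1 and OAS1) rose in acute cells, by log2 fold changes of 2.33 to 8.97. Cardiomyocyte markers were nearly absent: 2 of 10 passed the filter and their summed level was 2.04 to 2.31 CPM in vehicle, 2.53 to 2.56 in acute, 2.71 to 3.72 in recovery and 3.72 to 4.27 in repeat libraries, mostly from ACTN2, with MYH6, MYH7, MYL2, MYL7 and NPPA at 3 counts or fewer in every library. The 6 fibroblast markers summed to 7200 to 7480 CPM in vehicle, 5660 to 5890 in acute, 6240 to 6310 in recovery and 4950 to 5200 in repeat libraries. Leukocyte markers other than CD68 summed to 2.33 to 3.46 CPM over all libraries. CD68, a lysosomal protein of macrophages and other cells, averaged 93.6 CPM in vehicle, 230 in acute, 115 in recovery and 240 in repeat libraries. Of the hepatocyte markers, only SERPINA1 passed the filter (13 to 58 counts per library), APOB and TTR were at 0 in all libraries and ALB had at most 6 counts. The part of these marker changes in the results that follow was not tested.

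On the TPM scale the membrane regulators stood highest in vehicle cells. CD59 was at 111 ± 4.1 TPM, CD46 at 75.7 ± 3.2 and CD55 at 41.1 ± 0.56, followed by C1R at 25.6 ± 1.5 and C1S at 14.5 ± 0.73. C3 (3.34 ± 1.2 TPM), CFB (3.25 ± 0.22) and SERPING1 (2.55 ± 0.62) formed a low group whose library values overlapped, and CFI was listed at 0. In acute cells the ranges of C1R, 64.1 to 68.6 TPM, and CD46, 62.8 to 67.6 TPM, overlapped, and CFB at 11.6 ± 0.76 TPM stood above C3 at 2.29 ± 0.99.

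**Figure D1:**
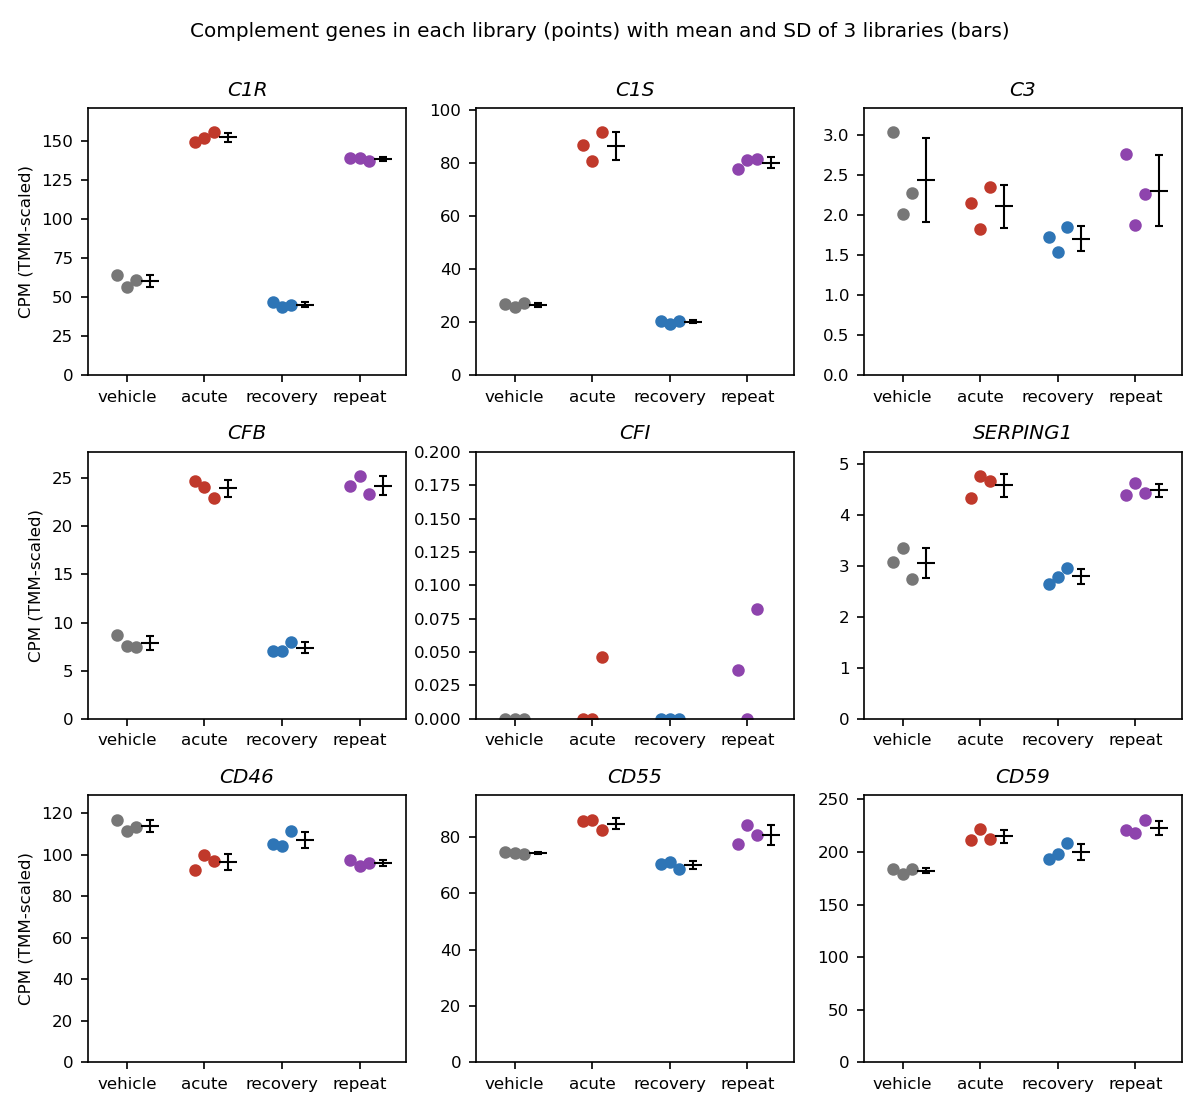
Level of each gene in each library, in TMM-scaled CPM on a linear axis from 0 (each panel has its own scale), by group. Points are libraries and black bars are the mean and SD of 3 libraries, left out for CFI, which had counts in 3 libraries. C1R, C1S, CFB and SERPING1 stood higher in acute and repeat than in vehicle and recovery libraries without overlap, and CD46 was lower in acute and repeat libraries.

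The first comparison, acute against vehicle, asks which members respond to a 24 h pulse. C1S, CFB and C1R rose 2.5- to 3.3-fold, SERPING1 rose 1.5-fold, CD59 and CD55 rose 1.18- and 1.14-fold, and CD46 fell. Of the 8 members tested, 6 rose, 1 fell and 1, C3, was not called, while 43.8% of all 18119 genes were called in this comparison. The median log2 fold change was 0.41 over the 8 members and 0.00019 over all genes. In bulk RNA, a change in the share of cells that express a gene and a change in RNA per cell cannot be told apart.

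C1S, whose product cleaves C4 and C2, was at 27.0, 25.8 and 27.1 CPM in the vehicle libraries and at 86.8, 81.0 and 91.7 CPM in the acute libraries. Every acute library was thus far above every vehicle library. The log2 fold change was 1.70 ± 0.040 (3.25-fold, edgeR adjusted p = 1.94e-22). C1R, whose product activates C1s, was at 64.3, 56.5 and 60.7 CPM in vehicle and 149.6, 152.4 and 155.7 CPM in acute libraries. Its groups did not overlap either, and its log2 fold change was 1.33 ± 0.034 (2.51-fold, edgeR adjusted p = 1.18e-19). The transcripts of the protease pair did not rise by the same factor: the ratio of C1R to C1S TPM was 1.92, 1.62 and 1.78 in vehicle and 1.42, 1.59 and 1.37 in acute libraries, ranges that do not overlap.

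CFB, which supplies the protease of the alternative pathway, was at 8.71, 7.51 and 7.45 CPM in vehicle and 24.7, 24.1 and 23.0 CPM in acute libraries. Its log2 fold change was 1.59 ± 0.061 (3.02-fold, edgeR adjusted p = 2.26e-18). C3, the substrate of both pathways, was at 3.03, 2.01 and 2.27 CPM in vehicle and 2.15, 1.82 and 2.35 CPM in acute libraries. The C3 groups overlapped, and the log2 difference of -0.22 ± 0.16 was not called (95% interval -0.55 to 0.12, edgeR adjusted p = 0.317). Without vehicle 1, the highest C3 library, it was -0.02, and without vehicle 2 it was -0.33. C3 rested on 71 to 173 counts per library. As a result the ratio of CFB to C3 CPM was 2.87, 3.73 and 3.28 in vehicle and 11.5, 13.2 and 9.76 in acute libraries.

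SERPING1, the inhibitor of C1r and C1s, was at 3.07, 3.35 and 2.75 CPM in vehicle and 4.33, 4.76 and 4.66 CPM in acute libraries. The groups did not overlap, and the log2 fold change was 0.58 ± 0.11 (1.5-fold, edgeR adjusted p = 4.35e-05). It lost the call with a gene length offset and on the TPM scale, the lowest value being 0.39. The inhibitor's transcript rose less than those of its targets, so that C1S CPM over SERPING1 CPM was 8.81, 7.69 and 9.85 in vehicle and 20.1, 17.0 and 19.7 in acute libraries. CFI, which encodes the protease factor I, had 0 counts in all 3 vehicle libraries and 2 counts in 1 of 3 acute libraries. A count of 0 in the 146.3 M vehicle reads allows up to 0.0205 CPM (3 counts over the group), and the acute group's 0.0143 CPM had an exact Poisson 95% interval of 0.00173 to 0.0517, so no change in CFI was detectable at this depth. This limit and such intervals cover counting error only, and not the split of reads between overlapping genes. An unnamed protein-coding gene overlaps CFI on the same strand. It had 6.69, 2.56 and 7.88 counts in vehicle and 1.19, 0 and 0 in acute libraries. In recovery libraries it had 2.47, 1.18 and 0 counts, and in all repeat libraries 0. Whether CFI reads were assigned to that gene was not tested.

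CD59, the surface inhibitor of the membrane attack complex, was at 183.5, 179.3 and 183.9 CPM in vehicle and 210.9, 221.9 and 211.8 CPM in acute libraries. This was a rise of 0.24 ± 0.028 on the log2 scale (1.18-fold, edgeR adjusted p = 8.06e-08). The rise was larger where gene length was used, at 0.37 with a length offset and 0.40 on the TPM scale. CD55, the decay accelerator, was at 74.5, 74.4 and 73.9 CPM in vehicle and 85.7, 86.1 and 82.3 CPM in acute libraries, a log2 fold change of 0.19 ± 0.030 (1.14-fold, edgeR adjusted p = 5.48e-06). CD46, the cofactor of factor I, moved the other way, from 116.8, 111.2 and 113.3 CPM in vehicle to 92.5, 99.9 and 97.0 CPM in acute libraries. Its log2 fold change was -0.24 ± 0.030 (0.846 times the vehicle level, edgeR adjusted p = 1.32e-07). None of the 3 membrane regulators overlapped between these groups. How many of all genes also had no overlap was not counted. Ranked by log2 fold change among 18119 genes, CD59 stood at position 3382 and CD55 at 4132 from the top, and CD46 at 3484 from the bottom. C1S stood at position 203 from the top in the same ranking.

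**Figure D2:**
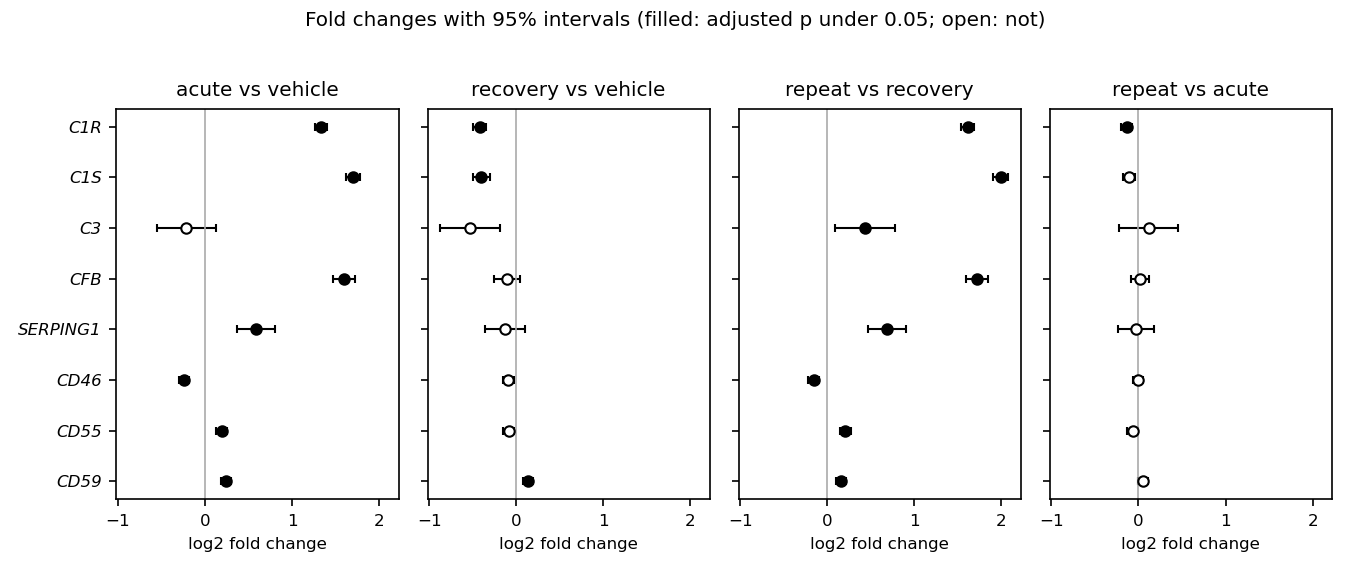
Log2 fold change (x axis) of the 8 tested members in 4 comparisons, with 95% intervals of the edgeR fit. Filled points had an adjusted p under 0.05 and open points did not. Acute against vehicle and repeat against recovery show the same order at the top, with C1S, CFB and C1R between 1.33 and 1.99, while recovery against vehicle shows C1R and C1S below 0.

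Recovery against acute asks what remained 5 days after the pulse was withdrawn. All 6 members that had risen fell, CD46 rose, and C3 was not called, so that 7 of 8 members were called against 41.1% of all genes. C1S fell by 2.10 ± 0.042 on the log2 scale, to 0.233 times the acute level, C1R fell by 1.75 ± 0.035 and CFB fell by 1.70 ± 0.062. SERPING1 fell by 0.71 ± 0.11, CD55 fell by 0.27 ± 0.030 and CD59 fell by 0.10 ± 0.027, and CD46 rose by 0.15 ± 0.030. The edgeR adjusted p was 0.00345 for CD59, 0.000167 for CD46 and 3.72e-06 or lower for the others. CD46 lost this call with a gene length offset and on the TPM scale. C3 had a log2 difference of -0.31 ± 0.17 (edgeR adjusted p = 0.156). This comparison shares the acute libraries with the one of acute against vehicle.

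Recovery against vehicle asks whether levels came back to those of cells without interferon. C1R and C1S were below vehicle, CD59 was above it, and the other 5 members were not called, a total of 3 of 8 against 5.94% of all genes. C1R was at 47.0, 43.9 and 45.2 CPM in recovery libraries, all lower than the lowest vehicle library at 56.5 CPM. The log2 fold change was -0.42 ± 0.037 (0.747 times vehicle, edgeR adjusted p = 7.61e-08). C1S was at 20.4, 19.5 and 20.7 CPM, also lower than every vehicle library, with a log2 fold change of -0.40 ± 0.047 (0.757 times, edgeR adjusted p = 1.92e-06). The C1S difference kept its size but lost its call on the scales that use gene length, at -0.48 with a length offset (edgeR adjusted p = 0.101) and -0.47 on log2(TPM + 0.5) (limma adjusted p = 0.141). C1R was called on both, at -0.35 on each.

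CD59 was at 193.6, 197.9 and 208.2 CPM in recovery, each above the vehicle libraries, with a log2 fold change of 0.13 ± 0.028 (edgeR adjusted p = 0.00252). Its call was also lost with a length offset and on the TPM scale. CD46 was at 105.3, 104.0 and 111.3 CPM (log2 difference from vehicle -0.09 ± 0.029, edgeR adjusted p = 0.0706), and CD55 was at 70.3, 71.2 and 68.7 CPM (-0.08 ± 0.030, edgeR adjusted p = 0.112). C3 was at 1.73, 1.54 and 1.85 CPM, below the vehicle range, with a log2 difference of -0.53 ± 0.17 (95% interval -0.87 to -0.18, edgeR adjusted p = 0.0636). C3 was called here without a filter and without vehicle 2, repeat 1 or repeat 2, its difference shrank to -0.33 without vehicle 1 (edgeR adjusted p = 0.434), and CD46 was called with only these groups in the fit and without recovery 3. SERPING1 was at 2.64, 2.77 and 2.95 CPM and overlapped vehicle (-0.13 ± 0.11, edgeR adjusted p = 0.632).

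CFB was at 7.06, 7.06 and 8.02 CPM in recovery and overlapped vehicle, with a log2 difference of -0.10 ± 0.072 (edgeR adjusted p = 0.532). In TPM the same libraries gave another picture: CFB was at 2.99, 3.37 and 3.39 TPM in vehicle and 4.39, 3.81 and 4.57 TPM in recovery, which do not overlap. The log2 difference was 0.39 with a length offset (edgeR adjusted p = 0.0616) and 0.34 on log2(TPM + 0.5) (limma adjusted p = 0.0986), so neither sign was called. The gene length implied by counts over TPM, relative to its vehicle mean, was 1.18, 0.912 and 0.907 for CFB in vehicle and 0.661, 0.756 and 0.723 in recovery libraries. The length behind the deposited TPM thus differed between libraries, and how it was set is not given in the sources used here.

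**Figure D3:**
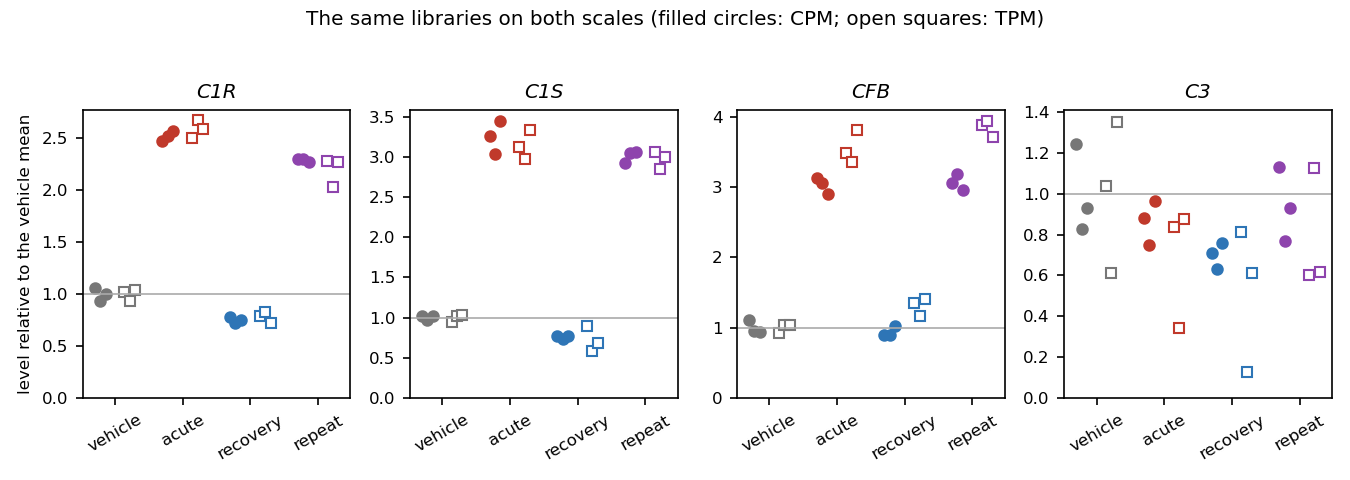
C1R, C1S, CFB and C3 in each library relative to the vehicle mean of the same scale (y axis, ratio, linear from 0), as CPM (filled circles) and TPM (open squares). C1R and C1S recovery libraries lie below 1 on both scales, CFB recovery libraries lie near 1 in CPM and above 1 in TPM, and C3 scatters more in TPM than in CPM.

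Length estimates mattered most for C3. Its implied length varied with a coefficient of variation of 73.8% over the 12 libraries, against a median of 4.35% over 9015 genes with at least 500 counts in every library. The recovery libraries had 77, 71 and 90 C3 counts and 2.72, 0.422 and 2.05 TPM, so libraries with almost the same count differed several-fold in TPM. CFB (15.9%), SERPING1 (13%), C1S (9.24%), C1R (5.92%) and CD59 (4.75%) were also above that median, and CD55 (1.64%) and CD46 (3.05%) were below it. C3, CFB and SERPING1 had fewer than 500 counts in some or all libraries, so for them the median comes from better counted genes.

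Repeat against recovery asks how the members respond to a pulse after an earlier one and a rest. All 8 members were called, 7 higher and CD46 lower, against 41.6% of all genes. C1S was at 77.8, 81.3 and 81.5 CPM in repeat libraries, a log2 fold change of 1.99 ± 0.041 over recovery (3.97-fold). C1R was at 139.3, 139.3 and 137.4 CPM, a log2 fold change of 1.61 ± 0.035 (3.06-fold), and CFB was at 24.2, 25.2 and 23.3 CPM, a log2 fold change of 1.71 ± 0.061 (3.28-fold). SERPING1 reached 4.38, 4.62 and 4.43 CPM, a rise of 0.68 ± 0.11. The edgeR adjusted p was 5.39e-06 for SERPING1 and lower for these other genes.

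CD55 was at 77.4, 84.4 and 80.5 CPM in repeat libraries, above every recovery library (log2 fold change 0.21 ± 0.030, edgeR adjusted p = 1.82e-06). CD59 was at 220.7, 217.8 and 230.6 CPM (0.16 ± 0.027, edgeR adjusted p = 3.32e-05). CD46 was at 97.3, 94.5 and 96.2 CPM (-0.16 ± 0.030, edgeR adjusted p = 8.86e-05). C3 was at 2.76, 1.88 and 2.27 CPM, and its log2 fold change of 0.43 ± 0.17 passed narrowly (edgeR adjusted p = 0.0408). That C3 call was lost with DESeq2, upper quartile scaling, a length offset, the TPM scale, and without recovery 1, recovery 2, repeat 1 or repeat 3. CFI had 2, 0 and 4 counts in the repeat libraries and 0 in all recovery libraries. This is 0.0362 CPM (exact Poisson 95% interval 0.0133 to 0.0788) against a recovery level that 0 counts limit to 0.0216 CPM, so the intervals do not separate the groups.

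Repeat against vehicle gave 7 of 8 members called against 46.3% of all genes. CFB was higher by 1.61 ± 0.060 on the log2 scale, C1S by 1.59 ± 0.039, C1R by 1.19 ± 0.033, SERPING1 by 0.55 ± 0.10, CD59 by 0.29 ± 0.027 and CD55 by 0.12 ± 0.030, while CD46 was lower at -0.25 ± 0.029. The edgeR adjusted p was 0.00112 for CD55 and 6.7e-05 or lower for the others. SERPING1 lost this call with a length offset and on the TPM scale, and CD55 with a length offset. C3 was not called (-0.10 ± 0.16, 95% interval -0.43 to 0.23).

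Repeat against acute compares the end levels of the later and the first pulse. Only C1R was called, 1 of 8 members against 4.2% of all genes. Its repeat libraries, 137.4 to 139.3 CPM, lay below its acute libraries, 149.6 to 155.7 CPM, with a log2 fold change of -0.14 ± 0.031 (0.909 times, edgeR adjusted p = 0.0126). The call was lost with a length offset, on the TPM scale, and without acute 2, acute 3, repeat 2 or repeat 3. For the other members the differences and 95% intervals were -0.11 (-0.18 to -0.04) for C1S, 0.12 (-0.22 to 0.46) for C3, 0.02 (-0.09 to 0.12) for CFB, -0.03 (-0.24 to 0.18) for SERPING1, -0.01 (-0.07 to 0.06) for CD46, -0.07 (-0.13 to -0.01) for CD55 and 0.05 (-0.002 to 0.11) for CD59. C1S was called without a filter (also without acute 2). The intervals of C3 and SERPING1, the members with the fewest counts apart from CFI, were the widest.

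The difference between the later response (repeat minus recovery) and the first response (acute minus vehicle) was tested as an interaction. C1R and C1S had a larger log2 response to the later pulse, 2 of 8 members against 0.651% of all genes. The difference was 0.28 ± 0.048 for C1R (95% interval 0.18 to 0.38, edgeR adjusted p = 0.00458) and 0.29 ± 0.059 for C1S (0.17 to 0.41, edgeR adjusted p = 0.0151). The baseline of the later response is the recovery group, collected after 5 interferon-free days, whereas repeat cells had 4 before their second pulse and were not measured at its start. For both genes the recovery libraries lay below vehicle, and no repeat library lay above the range of the acute libraries. The C1S call was lost without vehicle 1 or recovery 2. With a length offset the differences were 0.13 (edgeR adjusted p = 0.806) for C1R and 0.41 (edgeR adjusted p = 0.638) for C1S, and neither was called. C3 had the largest estimate and the widest interval, 0.64 ± 0.23 (0.16 to 1.13, edgeR adjusted p = 0.282). The remaining 5 members lay between -0.08 and 0.12, none called.

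The members varied together to different degrees over the 12 libraries, which share the 4 treatments, so these correlations of log2 CPM are descriptions. Pearson's r was 0.997 for C1R with C1S, 0.988 for C1S with CFB and 0.97 for C1S with SERPING1. CD55 followed C1R at 0.937, CD59 followed CFB at 0.84, and CD46 ran opposite to CFB at -0.869. C3 had no r above 0.346 with another member. Among 10919 named genes with a mean of at least 5 CPM, those most alike to C1R were LIPA (0.998) and C1S, and those most alike to C1S were C1R and P3H1 (0.996). CFB was closest to MASTL (0.999) and SHFL (0.997), and SERPING1 to FLAD1 (0.98) and AZI2 (0.979). CD46 was closest to DCUN1D4 (0.971) and EPAS1 (0.97), CD55 to IGFBP3 (0.966) and ANKRD30B (0.96), and CD59 to TMEM200A (0.975) and TIPARP (0.974). The closest genes to C3, S1PR2 (0.851) and OXR1 (0.844), were less alike.

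The rest of the complement system gives the setting of these 9 genes. Of 49 further complement genes listed by role, 16 passed the filter, and of those 3 rose, 1 fell and 12 were not called in acute against vehicle, a share called below the 43.8% of all genes, with a median log2 fold change of -0.02. In recovery against acute 1 was higher and 6 were lower (41.1% of all genes called), and in repeat against vehicle 3 were higher and 5 lower (46.3% of all genes called). In repeat against vehicle the higher were SUSD4, C3AR1 and C1QBP, and the lower MASP1, CFD, C5, CLU and C4BPB (-0.91 ± 0.21, edgeR adjusted p = 0.00083). There C4BPB, MASP1, SUSD4 and C1QBP kept the call under all 7 alternatives and 12 leave-outs. The calls of CFD, C5, CLU and C3AR1 were each lost in some of these runs. The 33 that did not pass had at most 13 counts in a library, and 15 of them had 0 in all 12. Those at 0 included all 3 C1q chains (C1QA, C1QB and C1QC), which carry C1r and C1s, as well as MBL2, C6, C8A and C8B. A count of 0 here says only that no transcript was detected at this depth.

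SUSD4, a membrane protein that inhibits complement, rose from 1.05, 1.20 and 0.866 CPM in vehicle to 4.33, 4.18 and 4.57 CPM in acute libraries (log2 fold change 2.07 ± 0.14, edgeR adjusted p = 1.07e-12). The later pulse raised it by 1.54 ± 0.13 over recovery (edgeR adjusted p = 1.92e-10). C3AR1, the receptor for the C3a fragment, went from 0.543, 0.294 and 0.411 CPM to 1.34, 0.987 and 1.07 CPM (1.43 ± 0.24, edgeR adjusted p = 1.59e-05), a call lost with a length offset and on the TPM scale. C1QBP, a mitochondrial and surface protein that binds C1q, rose from 263.5 ± 7.6 to 315.5 ± 2.6 CPM (0.26 ± 0.025, edgeR adjusted p = 9.46e-10). SUSD4 and C1QBP kept their acute call under every alternative and leave-out run.

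MASP1, a protease of the lectin pathway, was the 1 listed gene to fall, from 1.47, 1.18 and 1.19 CPM in vehicle to 0.552, 0.734 and 0.745 CPM in acute libraries (log2 fold change -0.94 ± 0.20, edgeR adjusted p = 0.000381; called on the TPM scale but not with a length offset). In repeat against recovery 4 of the 16 rose (SUSD4, C3AR1, C1QBP and C1RL, the last with a sign that turns with a length offset and on the TPM scale) and 2 fell (MASP1 and C5, the component that starts the terminal pathway), close to the 41.6% called among all genes. There the C1RL call was lost without recovery 3, and the MASP1 call with a length offset, on the TPM scale and without repeat 3. C5 was at 3.61, 4.55 and 4.35 CPM in recovery and 3.00, 2.89 and 3.30 CPM in repeat libraries (-0.45 ± 0.12, edgeR adjusted p = 0.00245), a call lost with a length offset and on the TPM scale. C1RL, a relative of C1R that overlaps it, was at 14.5 ± 0.69 CPM in vehicle and 14.7 ± 0.21 in acute libraries (0.01 ± 0.055, edgeR adjusted p = 0.897). On the TPM scale it was at 13.1, 12.3 and 10.1 in vehicle and 9.01, 8.34 and 9.18 in acute libraries, and it was called lower at -0.45 with a length offset (edgeR adjusted p = 0.0097) and -0.40 on log2(TPM + 0.5) (limma adjusted p = 0.0167). In recovery against vehicle C1RL (-0.22 ± 0.056, edgeR adjusted p = 0.0153) and CLU, the fluid-phase inhibitor clusterin (-0.19 ± 0.052, edgeR adjusted p = 0.0211), were lower and 14 of 16 were not called, against 5.94% called among all genes. Both of these calls were lost with a length offset, on the TPM scale, and without vehicle 1 or recovery 2, and the C1RL call also without recovery 3. None of the 16 was called by edgeR or DESeq2 in repeat against acute, where 3 had an unadjusted edgeR p under 0.05, or in the interaction, where 2 had. Among all genes edgeR called 4.2% in repeat against acute and 0.651% in the interaction. With shares this low, the lack of calls says little about these 16 genes.

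C4A and C4B, which encode the substrate of C1s, are near-identical copies, and their split is uncertain. Vehicle libraries had 3.54, 0.996 and 3.70 CPM for C4A and 1.30, 4.19 and 1.32 CPM for C4B, so the reads changed places between replicates. Their sum was steadier at 4.83, 5.18 and 5.02 CPM in vehicle, 4.77, 4.50 and 5.94 in acute, 3.90, 4.42 and 4.68 in recovery and 4.56, 4.67 and 4.62 in repeat libraries. C2, the other substrate of C1s, was at 1.38, 1.09 and 1.19 CPM in vehicle and 1.44, 1.42 and 1.49 CPM in acute libraries and was not called (0.24 ± 0.18, edgeR adjusted p = 0.306).

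**Figure D4:**
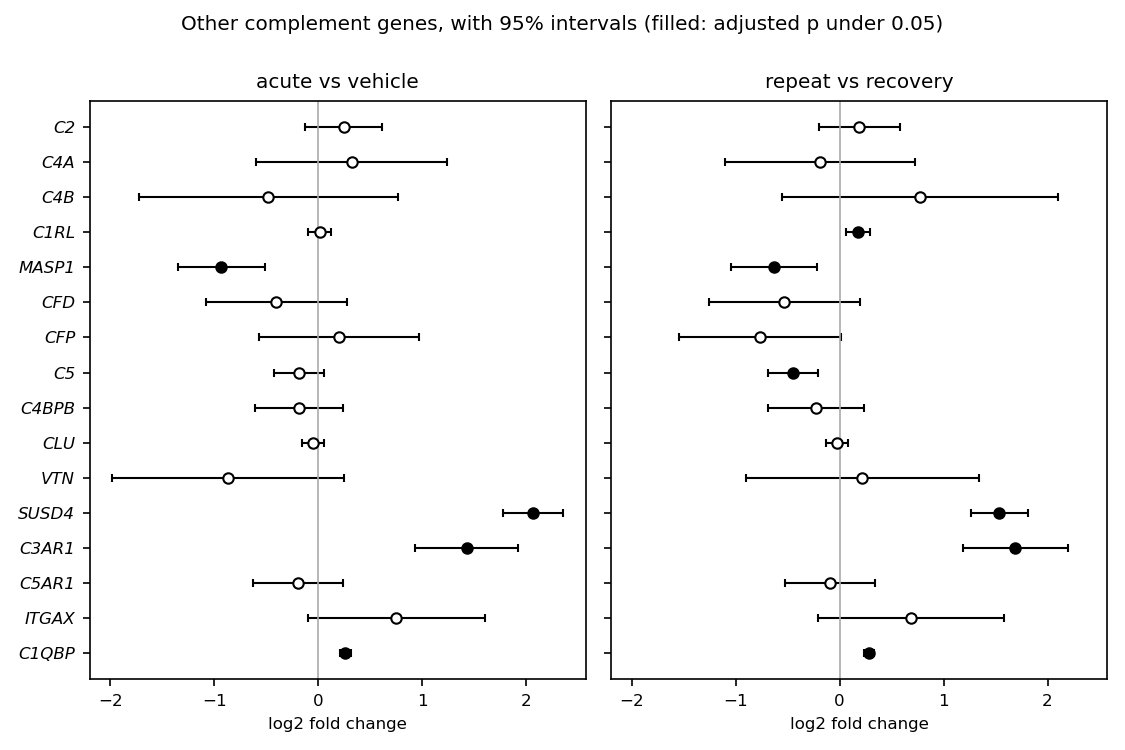
Log2 fold change (x axis) of the 16 further complement genes that passed the filter, in acute against vehicle and in repeat against recovery, with 95% intervals of the edgeR fit. Filled points had an adjusted p under 0.05. SUSD4, C3AR1 and C1QBP are above 0 and MASP1 below 0 in both panels.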

How the data were processed

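RNA sequencing of 12 libraries was analysed. They were made from poly(A) RNA with a stranded kit and sequenced as single reads, per the labels' protocols. The submitters' processing notes name STAR 2.7.11a, featureCounts 2.0.3, Trim Galore 0.6.10 with cutadapt 4.3, edgeR and Picard 2.27.5, and the build GRCh38.p13; per the labels the annotation was GENCODE 41. The authors deposited a table of estimated counts, in which 25.5% of nonzero values were not whole (they were rounded here), and a table of TPM summing to 1000000 per library. Growth media differ between the labels' texts. Symbols came from GENCODE 44 (60507 of 60649 identifiers matched), and 36621 had a count.

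Counts were fitted in R 4.3.3 with edgeR 4.0.16 (quasi-likelihood F test, robust, TMM, filterByExpr, 1 mean per group, all 12 libraries; common biological coefficient of variation 2.67%). The scripts were tested on simulated data. Replicates are independent per the design text and differed by 1.78 to 2.98 times Poisson noise; no pair was merged. Deviations of same-numbered libraries from their group means had no r over 0.1 (0 of 18 pairs), so the main fit used no block. All same-numbered pairs of vehicle with acute (0.0547 to 0.0763) and with repeat (0.0247 to 0.0548) were above 0. All such pairs of recovery with vehicle and with acute were below 0. Alternatives were DESeq2 1.42.0, no filter, upper quartile scaling, an offset for the length implied by counts over TPM, limma 3.58.1 on log2(TPM + 0.5), only the groups compared, a replicate block and leaving out each library. Those for the further complement genes were added after seeing the data. The members and lists were chosen with earlier results of these data known. Named genes are all 9 members, listed complement genes that passed the filter, and for each member the 2 genes with the highest Pearson correlation of log2 CPM (prior count 2).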

Additional observations from a re-analysis of the deposited data

Results flagged for a closer look

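C1R had a larger log2 response to the later than to the first pulse, by 0.28, and C1S by 0.29. These are tests of the difference between responses (edgeR adjusted p = 0.00458 and 0.0151). For C1R the first response took libraries from 56.5 to 64.3 CPM up to 149.6 to 155.7, and for the later response recovery libraries were at 43.9 to 47.0 CPM and repeat libraries at 137.4 to 139.3. For C1S the corresponding ranges were 25.8 to 27.1 up to 81.0 to 91.7, and 19.5 to 20.7 against 77.8 to 81.5 CPM. For both genes recovery libraries lay below vehicle libraries, and no repeat library lay above the acute range. Whether the rise in CPM differed between the pulses was not tested. Recovery cells had 5 interferon-free days and repeat cells 4, and the level of repeat cells just before the second pulse was not measured. The C1S difference was not called without vehicle 1 or recovery 2, and neither was called on a scale that uses gene length. The groups also differ in labelled time in culture, which cannot be told apart from the number of pulses.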

How the results depend on the processing

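Of the 8 tested members, 7 kept direction and call under all 7 alternatives and 12 leave-outs in acute against vehicle, 7 in recovery against acute, 3 in recovery against vehicle, 7 in repeat against recovery, 3 in repeat against acute, 5 in repeat against vehicle and 4 in the interaction (6 alternatives there). Gene length mattered most. With a length offset edgeR called 4411, 3912, 178, 3976, 10, 4778 and 11 genes in these 7 comparisons, and limma on log2(TPM + 0.5) called 4324, 3839, 120, 3812, 6, 4663 and 5, against 7938, 7448, 1076, 7546, 761, 8391 and 118. Members called on both of these scales were 1 (C1R) in recovery against vehicle and 0 in repeat against acute and in the interaction. Members called in repeat against acute were 2 without a filter and 2 with a replicate block, which adds C1S (adjusted p = 0.0439); the block also called C3 in recovery against vehicle (-0.51, adjusted p = 0.0354) and changed no other count of members by over 1.5 times. In the interaction DESeq2 called 1 member, having given C1S no adjusted p, and 235 genes, and edgeR without a filter called 333. Repeat against acute gave 506 genes with only those groups in the fit. Same-numbered libraries correlated with a median r of 0.00194, and 7 of 12 were closest to their own number.

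Leaving out 1 library gave 0 to 1 members and 340 (without acute 3) to 1233 (without repeat 1) genes in repeat against acute, 627 (without vehicle 1) to 1180 genes in recovery against vehicle, and 1 to 2 members and 51 (without acute 3) to 348 (without repeat 1) genes in the interaction. Signs turned as follows, for members only where the full fit made no call. CFB in recovery against vehicle was 0.39 and 0.34 with length offset and TPM, and its interaction -0.26 and -0.23. In repeat against acute, leaving out 1 library gave -0.035 (repeat 1) to 0.25 for C3, -0.013 (repeat 2; -0.010 without acute 3) to 0.044 for CFB, and -0.037 to 0.020 (acute 2; 0.0002 and 0.0065 without acute 3 and repeat 2) for CD46, which was 0.0030 without a filter. It gave -0.25 to 0.098 (vehicle 1; 0.036 without repeat 2) for C3 in repeat against vehicle, and -0.018 (repeat 2; -0.0018 without acute 3) to 0.045 for the CD55 interaction. In acute against vehicle C1RL was -0.016 with upper quartile scaling, -0.45 and -0.40 with length offset and TPM, and -0.014 (vehicle 2; -0.0033 and -0.00092 without vehicle 3 and acute 3) to 0.053 in leave-outs. Among further genes, with length offset and TPM C1RL turned to 0.25 and 0.21 in recovery against acute and -0.056 and -0.037 in repeat against recovery, and MASP1 to -0.27 and -0.12 in recovery against acute. Except for the alternatives named as dropping genes or samples, the cause was not tested.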
